A study of Rattus norvegicus with 12 samples.

Results

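The podocyte genes described here are Nphs1, Podxl, Clic5, Wt1, Synpo, Ptpro and Magi2, 7 of the 15645 named genes on a rat array. Their probes were chosen by name: every probe outside the controls whose accession maps to one of these symbols was taken, which gave 15 of 61537 probes. Nphs1 has 2 probes, Clic5 3, Wt1 4 and Ptpro 3, and Podxl, Synpo and Magi2 have 1 each. The rule for taking probes uses names alone, but the 7 genes were chosen with earlier results of these data known.

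Renal cortex was taken from 12 male rats of the Sprague-Dawley (Crl:CD(SD)) stock, and the total RNA of each was hybridised to its own 1-colour array. The rats were bought at 5 weeks of age and received cisplatin, a platinum drug toxic to the kidney tubule, or water for 4 weeks. In the gavage experiment the cisplatin label is 3.75 mg/kg/day, and in the intravenous experiment it is 0.75 mg/kg/day, with a water group given by the same route in each. The general treatment text gives 3.75 mg/kg/day alone, so the intravenous dose rests on the label of each sample. Each of the 4 groups held 3 animals, called biological replicates in the design text. Route, dose and experiment changed together.

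Podocytes are the epithelial cells that wrap the capillaries of the glomerulus. Their foot processes interlock and are joined by the slit diaphragm, a cell junction through which plasma is filtered. Glomeruli lie in the cortex, where they make up a small part of a tissue that is mostly tubule. Nphs1 encodes nephrin, the adhesion molecule of the slit diaphragm, and Magi2 a scaffold protein that binds nephrin inside the cell. Podxl encodes podocalyxin, the charged sialoprotein of the apical surface, Clic5 a chloride intracellular channel family protein held with ezrin at the foot process cortex, and Synpo synaptopodin, which binds actin. Ptpro encodes the receptor tyrosine phosphatase GLEPP1 of the foot process, and Wt1 the zinc finger transcription factor that maintains podocyte identity.

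Nphs1, Podxl and Clic5 were lower on the cisplatin arrays of both experiments, on the scale described next, and the 250 bases before their annotated starts are shown because the brightest probe of each fell in both. All 7 members had an entry in the RefSeq promoter table of assembly GRCr8. The windows of Wt1, Ptpro and Magi2 do not end at the annotated gene start, and they are not printed, nor is that of Synpo, which did not pass the test. Capitals mark GGGCGG, the letters of the GC box, or GCGTGGG, the core of sites read by WT1 and EGR proteins, on either strand, with overlapping matches counted singly. Each sequence is given 5′ to 3′ on the strand of its gene.
Nphs1, chr1:94848011-94848260, plus strand: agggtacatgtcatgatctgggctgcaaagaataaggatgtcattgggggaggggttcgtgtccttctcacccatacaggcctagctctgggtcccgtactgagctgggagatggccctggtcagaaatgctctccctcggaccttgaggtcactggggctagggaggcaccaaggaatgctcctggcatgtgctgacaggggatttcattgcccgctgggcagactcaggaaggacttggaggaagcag
Podxl, chr4:61149132-61149381, minus strand: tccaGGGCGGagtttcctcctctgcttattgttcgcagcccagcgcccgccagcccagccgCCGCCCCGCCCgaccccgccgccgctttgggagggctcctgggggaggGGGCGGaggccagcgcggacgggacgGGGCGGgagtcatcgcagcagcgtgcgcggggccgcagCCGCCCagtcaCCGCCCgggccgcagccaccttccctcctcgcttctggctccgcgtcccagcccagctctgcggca
Clic5, chr9:24310965-24311214, minus strand: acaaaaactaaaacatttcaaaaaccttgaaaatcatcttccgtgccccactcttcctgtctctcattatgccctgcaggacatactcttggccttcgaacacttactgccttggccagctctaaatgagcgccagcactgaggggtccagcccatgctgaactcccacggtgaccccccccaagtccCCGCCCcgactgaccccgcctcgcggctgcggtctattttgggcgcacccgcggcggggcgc
GGGCGG was found 0 times before Nphs1, 7 times before Podxl and 1 time before Clic5, beginning 62 bases upstream. Of 33469 rat promoter windows of the same length, 30.5% held it. GCGTGGG was found in none of these 3 windows, and 3.68% of all windows held it. GC content was 57.2% for Nphs1, 76.4% for Podxl and 58.4% for Clic5, against a median of 51.2% over all windows. Podxl thus stood apart in GC content and in GGGCGG matches, while Nphs1 and Clic5 were close to each other in both.

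All levels are log2 of the processed spot intensity minus the 75th percentile of that array, so that 0 is the brightness below which 75% of its probes lie. A level belongs to its probe and is not compared between probes. For genes with several probes, the probe with the highest mean over the 12 arrays stood for the gene. The test was limma across 43900 probes, two-sided, with Benjamini-Hochberg adjustment, and a gene is said to have risen or fallen at an adjusted p under 0.05. The 75th percentile was 969.7 to 1055 on the 6 water arrays and 1387 to 1532 on the 6 cisplatin arrays, and 66.1% to 73.9% of probes were well above background, with 0 saturated. Of the 15 probes, 14 were well above background on all 12 arrays. The exception is Magi2, which was not so on 1 of the 3 arrays of each intravenous group.

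After gavage cisplatin 5 of the 7 genes fell and 0 rose (0 also at an unadjusted limma p under 0.05). Nphs1, Podxl, Clic5, Wt1 and Ptpro passed the test, with differences from -0.78 to -0.32 (log2). Synpo and Magi2 did not pass. Over the 12610 named genes tested, 32.7% fell and 30.3% rose in the same comparison, so a fall is common on these arrays. Because the members were chosen with earlier results of these data known, setting them beside all genes is no independent test. The median of the 7 genes was -0.75, against -0.03 over all genes tested. On all 3 cisplatin arrays all 7 genes lay below their 3 water arrays, a separation found in 36.7% of genes.

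After intravenous cisplatin 4 of the 7 genes fell, namely Nphs1, Podxl, Clic5 and Wt1, and 0 rose (0 also at an unadjusted limma p under 0.05). The shares over all genes were 31.7% lower and 29.8% higher. The median of the 7 was -0.55, against -0.01 over all genes. The 3 cisplatin arrays lay below the 3 water arrays for 5 of the 7 genes, with 35.2% of all genes separated in that way.

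These directions are relative to the rest of each array and depend on that reference. With the arrays scaled instead on their 7 spike-in control probes, 0 of the 7 genes fell, at an adjusted or unadjusted limma p under 0.05, and 1, Ptpro, rose in either experiment. On that scale 11.4% of all genes fell and 62.5% rose with gavage, and 10.6% and 55.0% with intravenous cisplatin. The change of scale adds 0.68 to every gavage difference and 0.52 to every intravenous difference. The median of the 7 genes was then -0.07 and -0.03, against 0.65 and 0.50 over all genes. The distance between the members' median and that of all genes was -0.72 and -0.54 on either scale. The labels do not say how much spike-in RNA was added. The arrays give no RNA per gram of tissue against which either scale could be set.

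**Figure D1:**
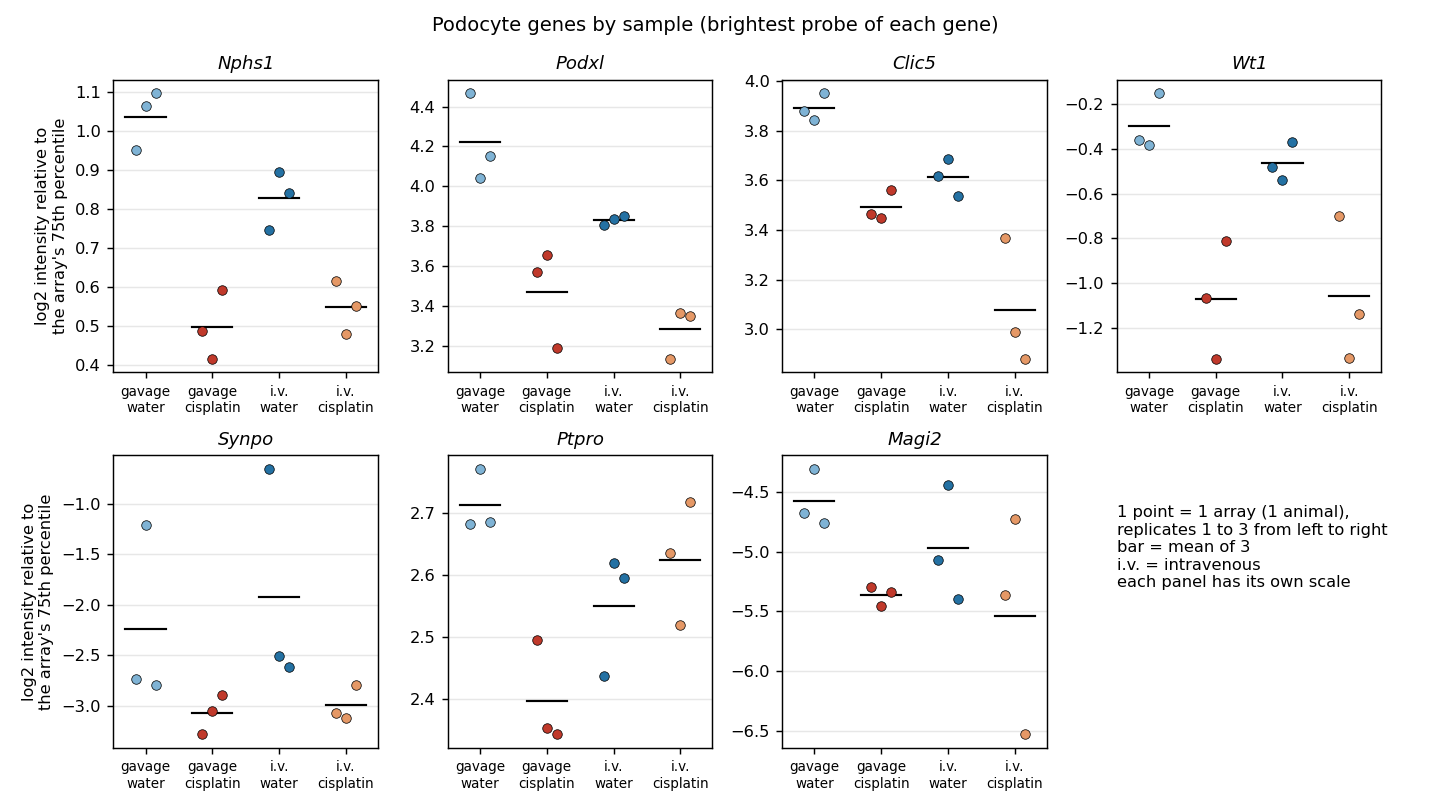
Level of each podocyte gene (log2 processed intensity minus the 75th percentile of the array, vertical axis, brightest probe) on each of the 12 arrays, in 4 groups of 3 animals; points are arrays and bars are group means. With gavage all 3 cisplatin points lie below the 3 water points in every panel, whereas on the spike-in scale 0 of the 7 genes fell.

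Nphs1, nephrin, stood at 0.95, 1.06 and 1.096 on the gavage water arrays and at 0.49, 0.42 and 0.59 on the gavage cisplatin arrays. The intravenous water arrays gave 0.74, 0.89 and 0.84 and the intravenous cisplatin arrays 0.62, 0.48 and 0.55. In each experiment every cisplatin array was below every water array. The gavage difference was -0.54 ± 0.083 (log2 ± SE, 3 animals per group), a level 1.45-fold lower (limma adjusted p = 0.000311). The intravenous difference was -0.28 ± 0.083 (1.21-fold lower, adjusted p = 0.0157), and it no longer passed without intravenous water replicate 2 (adjusted p = 0.0593) or intravenous cisplatin replicate 2 (adjusted p = 0.0540). On the spike-in scale both differences were positive and neither passed, at 0.14 and 0.24. The second Nphs1 probe, A_64_P162500, fell by 0.83 with gavage (adjusted p = 0.000815) but differed by -0.09 with intravenous cisplatin (adjusted p = 0.640), where its groups overlapped. The probes thus gave different calls in the intravenous experiment.

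Magi2 gave a dim signal, with processed intensities of 15.02 to 53.2. Its gavage water levels were -4.67, -4.31 and -4.76, and its gavage cisplatin levels were -5.30, -5.46 and -5.33. The intravenous water levels were -5.07, -4.44 and -5.40 and the intravenous cisplatin levels -5.36, -4.72 and -6.53. The gavage groups did not overlap, but the intravenous groups did. The differences were -0.78 ± 0.39 with gavage (limma adjusted p = 0.110) and -0.57 ± 0.39 with intravenous cisplatin (adjusted p = 0.235), with 95% intervals of -1.66 to 0.09 and -1.44 to 0.30. Neither passed, though both did with the normexp background correction, at -0.60 (adjusted p = 0.00319) and -0.41 (adjusted p = 0.0264). Without intravenous cisplatin replicate 3 the gavage difference passed (adjusted p = 0.0232) and the intravenous one was -0.07, and without replicate 2 of that group it was -0.98 and passed (adjusted p = 0.0408).

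Podxl, podocalyxin, stood at 4.47, 4.04 and 4.15 on the gavage water arrays and at 3.57, 3.65 and 3.19 on the gavage cisplatin arrays. The intravenous water arrays gave 3.81, 3.84 and 3.85 and the cisplatin arrays 3.14, 3.36 and 3.35. The groups did not overlap in either experiment, and the intravenous water animals differed from one another by less than those of any other group. Podxl fell by 0.75 with gavage (SE 0.14, 1.68-fold, limma adjusted p = 0.00120). It fell by 0.55 with intravenous cisplatin (SE 0.14, 1.46-fold, adjusted p = 0.00779), which quantile normalization reduced to -0.36 (adjusted p = 0.0532). Scaled on the spike-ins, the differences were -0.07 and -0.03.

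Clic5 stood at 3.88, 3.85 and 3.95 on the gavage water arrays and at 3.47, 3.45 and 3.56 on the gavage cisplatin arrays. The intravenous water arrays gave 3.62, 3.69 and 3.54 and the cisplatin arrays 3.37, 2.99 and 2.88. Again the groups did not overlap, and intravenous cisplatin replicate 1 lay nearest to its controls. The differences were -0.40 ± 0.12 with gavage (limma adjusted p = 0.0141) and -0.53 ± 0.12 with intravenous cisplatin (adjusted p = 0.00324). The probe A_42_P503281 also fell in both experiments, by 0.46 (adjusted p = 0.00166) and by 0.33 (adjusted p = 0.0115). A_44_P759216 gave -0.24 and -0.31 and passed in neither (adjusted p = 0.147 and 0.0622), though without intravenous cisplatin replicate 1 it passed in both, at -0.24 (adjusted p = 0.0428) and -0.47 (adjusted p = 0.00365). Scaled on the spike-ins, the brightest probe gave 0.28 and -0.02, and with quantile normalization its gavage difference was -0.17 (adjusted p = 0.222).

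Synpo had 1 water array far above the others in each experiment. The gavage water levels were -2.73, -1.20 and -2.79, and the gavage cisplatin levels -3.28, -3.05 and -2.89. The intravenous water levels were -0.65, -2.51 and -2.62, and the cisplatin levels -3.07, -3.12 and -2.80. All cisplatin arrays were therefore below all water arrays, but the SD of the water groups was 0.90 and 1.11 against 0.20 and 0.17 with cisplatin. The differences of -0.83 ± 0.53 and -1.07 ± 0.53 did not pass (limma adjusted p = 0.199 and 0.107). Without gavage water replicate 2 the gavage difference was -0.31, and without intravenous water replicate 1 the intravenous difference was -0.43.

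Ptpro stood at 2.68, 2.77 and 2.69 on the gavage water arrays and at 2.50, 2.35 and 2.34 on the gavage cisplatin arrays. The intravenous water arrays gave 2.44, 2.62 and 2.60 and the cisplatin arrays 2.64, 2.52 and 2.72. The gavage groups did not overlap, and the intravenous groups did. Ptpro fell with gavage, by 0.32 (SE 0.087, 1.24-fold, limma adjusted p = 0.0101), but under quantile normalization the difference was -0.16 and did not pass (adjusted p = 0.127). With intravenous cisplatin its difference was 0.07 ± 0.087 (adjusted p = 0.491, 95% interval -0.12 to 0.27). The probe A_44_P289080 gave a fall of 0.27 (adjusted p = 0.0227) and a difference of 0.08 (adjusted p = 0.456). The third probe, A_44_P430937, gave -0.26 with gavage (adjusted p = 0.191) and rose by 0.46 with intravenous cisplatin (adjusted p = 0.0322), with no overlap of the groups. That rise was lost in 5 of the 12 fits without 1 array (adjusted p up to 0.116), and also with normexp (0.26, adjusted p = 0.0703), quantile normalization (adjusted p = 0.0587), no filter on dim probes (adjusted p = 0.0510) and only the 6 arrays of the experiment (adjusted p = 0.0623). The fall of A_44_P289080 was lost without gavage water replicate 2 (adjusted p = 0.0901) or gavage cisplatin replicate 1 (adjusted p = 0.0661). With spike-in scaling Ptpro rose in both experiments, by 0.36 (adjusted p = 0.0165) and by 0.59 (adjusted p = 0.00134), and with quantile normalization it rose in the intravenous experiment by 0.22 (adjusted p = 0.0433).

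Wt1 stood at -0.36, -0.38 and -0.15 on the gavage water arrays and at -1.07, -1.34 and -0.81 on the gavage cisplatin arrays. The intravenous water arrays gave -0.48, -0.54 and -0.37 and the cisplatin arrays -0.70, -1.34 and -1.14. The groups did not overlap in either experiment, although intravenous cisplatin replicate 1 was close to the water arrays. Wt1 fell by 0.78 with gavage (SE 0.17, 1.71-fold, limma adjusted p = 0.00305) and by 0.60 with intravenous cisplatin (SE 0.17, 1.51-fold, adjusted p = 0.0137). Without intravenous cisplatin replicate 2 the intravenous difference was -0.46 (adjusted p = 0.0529), and on the spike-in scale the 2 differences were -0.10 and -0.08.

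The other 3 Wt1 probes gave fewer calls. A_64_P140507 and A_44_P176466 fell with gavage, by 0.70 (adjusted p = 0.0113) and by 0.54 (adjusted p = 0.0474), but the second call was lost in 9 of the 12 fits that left out 1 array (adjusted p up to 0.166). A_64_P142861 gave -0.81 (adjusted p = 0.0972). With intravenous cisplatin 0 of these 3 passed, at -0.33, -0.27 and 0.05 in the same order. A_64_P142861 read -2.86 on intravenous cisplatin replicate 1, against -4.61 and -4.48 on the other two, and without that array its intravenous difference was -0.51 (adjusted p = 0.05004) and its gavage fall of 0.81 passed (adjusted p = 0.00294).

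**Figure D2:**
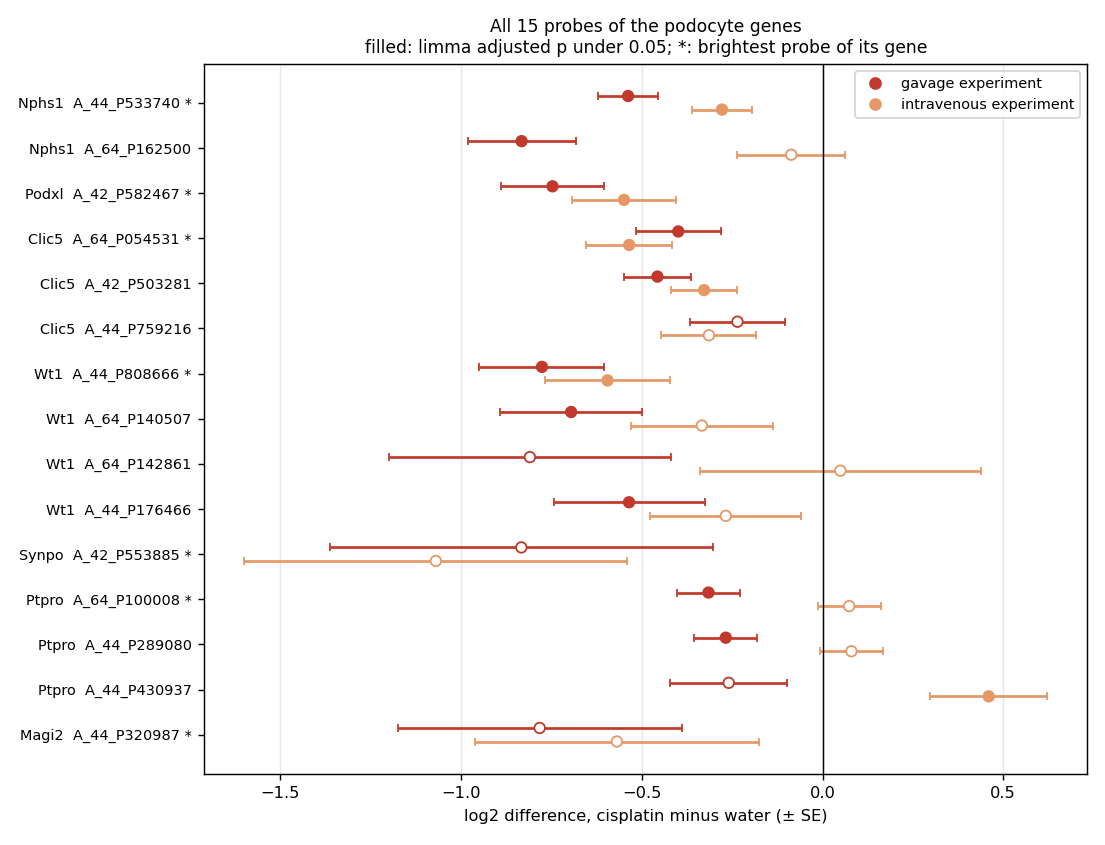
Cisplatin minus water for each of the 15 probes (log2 difference, horizontal axis, bars ± SE) in the gavage and intravenous experiments of 3 animals per group, relative to the 75th percentile of each array; filled points passed the limma test. The gavage points are all below 0, while the intravenous points spread to both sides of 0 and the 3 Ptpro probes lie above it; adding 0.68 (gavage) or 0.52 (intravenous) gives the spike-in scale.

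Counted by probe, 10 of 15 fell with gavage and 0 rose, against 29.9% of all probes lower and 29.6% higher. With intravenous cisplatin 5 fell and 1 rose, against 30.6% lower and 27.6% higher. The cisplatin arrays were below the water arrays without overlap for 14 of 15 probes with gavage and for 7 of 15 with intravenous cisplatin, compared with 33.8% and 34.7% of all probes.

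The intravenous share of probes lower was thus near that of all probes. With 1 value per gene as the mean of its probes, 2 genes fell with intravenous cisplatin. Nphs1 then gave -0.18 (adjusted p = 0.118) and Wt1 -0.29 (adjusted p = 0.231), so those 2 intravenous calls rest on the brightest probe.

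The effects of the 2 experiments were compared directly as the intravenous effect minus the gavage effect. It passed for 0 of the 7 genes and 0 of the 15 probes, at a background of 0.182% of genes in each direction. Before adjustment, the limma p was under 0.05 for 1 gene, Ptpro, and for 4 of the 15 probes. Ptpro differed by 0.39 ± 0.12 (adjusted p = 0.139, 95% interval 0.11 to 0.66), and the second Nphs1 probe by 0.75 (adjusted p = 0.111, interval 0.28 to 1.22). The other 6 genes gave -0.24 to 0.26. The gavage-only call of Ptpro is therefore not shown to differ between the experiments.

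The water groups bear on how far the experiments can be set side by side. In intravenous water compared with gavage water, 6 of the 7 genes were lower, by values from -0.39 to -0.16, and Synpo was higher, at 0.32. None passed the limma test (lowest adjusted p = 0.270), as for 0.00% of all genes in either direction. Unadjusted p was under 0.05 for Nphs1, Podxl and Clic5. For 4 of the 7 genes, Nphs1, Podxl, Clic5 and Ptpro, the intravenous water arrays lay below the gavage water arrays without overlap, a separation seen in 18.4% of all genes. On the spike-in scale Nphs1, Wt1 and Ptpro were instead slightly higher in intravenous water, at 0.0066, 0.049 and 0.054.

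The unscaled processed intensities of the brightest probes were as follows. The mean processed intensity of Nphs1 was 2051 ± 155 in gavage water and 2083 ± 92.8 in gavage cisplatin (SD, n = 3), and 1834 ± 83.8 and 2049 ± 100.3 in the intravenous groups. Podxl gave 18713 ± 2431 and 16570 ± 3046 with gavage, and 14731 ± 456 and 13666 ± 1123 in the intravenous groups. For Ptpro they were 6554 ± 377 and 7775 ± 376, and 6064 ± 395 and 8645 ± 543. The mean of this Nphs1 probe was thus no lower with cisplatin in either experiment, while the 75th percentile it is set against was higher. The second Nphs1 probe gave 956 ± 105 and 795 ± 110.0 with gavage, and 801 ± 92.8 and 1026 ± 163 in the intravenous groups. Unscaled Ptpro was higher with cisplatin in both experiments. Unscaled Wt1 was lower in both, at means of 815 and 706 with gavage and 751 and 684 in the intravenous groups. Synpo was also lower in both, at 244 and 176 and at 336 and 176, with 1 high water array in each. Clic5 gave 14828 and 16601 with gavage, and 12660.5 and 11972 in the intravenous groups. Magi2 gave 42.2 and 35.9 with gavage, and 34.1 in either intravenous group. In RNA from whole cortex, fewer cells of a type and less RNA per cell cannot be told apart.

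**Figure D3:**
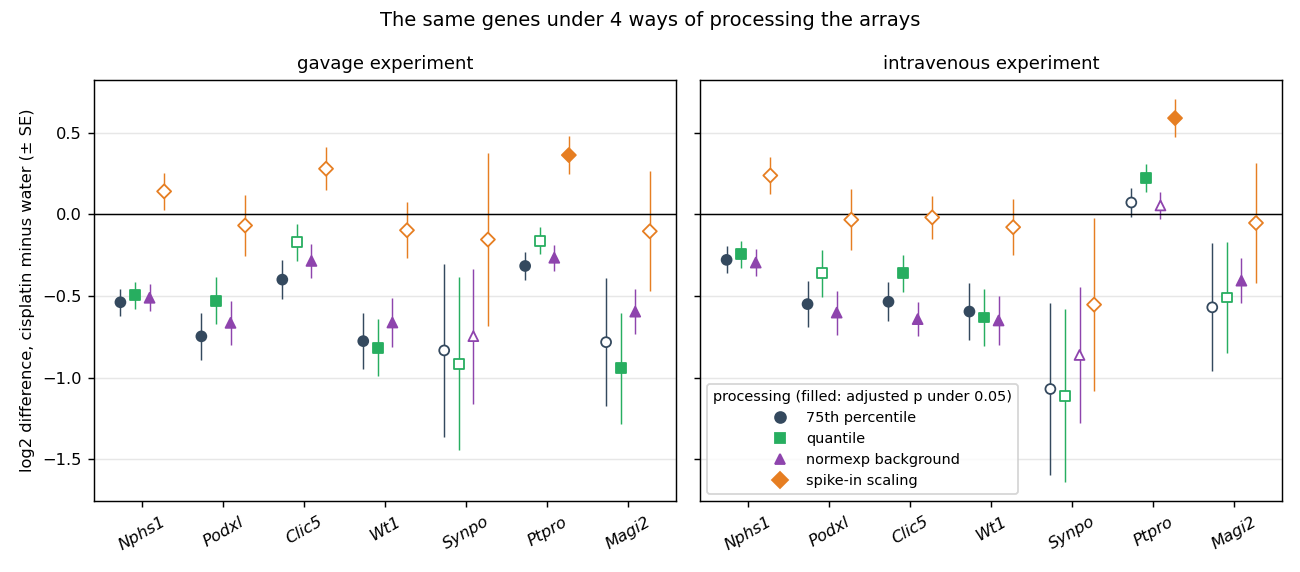
Cisplatin minus water (log2 difference, vertical axis) for the brightest probe of each of the 7 genes, in the gavage and the intravenous panel, under 4 ways of processing the arrays; bars are ± SE and filled points passed the limma test. Points on the 75th percentile scale are below 0 except Ptpro in the intravenous panel, and those on the spike-in scale lie between -0.55 and 0.59.

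Slides held the groups unevenly. All 3 gavage water arrays were on slide 1, together with replicate 1 of gavage cisplatin. Slide 2 held replicates 2 and 3 of gavage cisplatin and all of intravenous water. Slide 3, scanned on another day, held intravenous cisplatin alone. Within slide 1, which a fixed slide block uses alone for the gavage effect, 3 genes fell. These were Nphs1 at -0.55 (limma adjusted p = 0.00549), Podxl at -0.65 (adjusted p = 0.0291) and Wt1 at -0.77 (adjusted p = 0.0349). Clic5 gave -0.43 (adjusted p = 0.0712) and Ptpro -0.22 (adjusted p = 0.158). That fit rests on 1 cisplatin array, assumed to vary like the other groups. For intravenous cisplatin, and so for the difference between the effects of the experiments, slide and treatment cannot be told apart. The water groups lay on slides 1 and 2, linked only by the gavage cisplatin arrays.

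The tissue label was checked against marker genes of cortical cell types. Only the macrophage gene Cd163 and the fibroblast gene Lum were not well above background on any water array. The 7 podocyte genes had a summed level (linear, relative to the 75th percentile) of 41.03 to 46.1 on gavage water arrays and 28.3 to 30.6 on gavage cisplatin arrays. It was 34.8 to 36.1 and 25.9 to 27.6 in the intravenous experiment. On this scale the cisplatin arrays lay below the water arrays of their own experiment in both cases. The sum is led by the bright probes of Podxl, Clic5 and Ptpro, and it was not taken on the spike-in scale. There Podxl, Clic5 and Ptpro differed by -0.07, 0.28 and 0.36 with gavage and by -0.03, -0.02 and 0.59 with intravenous cisplatin.

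Other cell types moved on the same arrays, most of them by more. Over all genes tested, 32.7% fell and 30.3% rose with gavage, and 31.7% fell and 29.8% rose with intravenous cisplatin. These shares stand beside each marker count below. Of 8 proximal tubule markers 8 fell with gavage and 7 with intravenous cisplatin, with medians of -3.977 and -1.999. Their summed level went from 1216 to 1360 on gavage water arrays to 73.5 to 172 with cisplatin, and from 1101 to 1283 to 128 to 453 in the intravenous experiment. The medians of the 7 podocyte genes, -0.75 and -0.55, were closer to 0.

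All 6 genes listed for the distal nephron (thick ascending limb, distal tubule) fell in both experiments, and 4 of 6 collecting duct markers did. With spike-in scaling 3 collecting duct markers fell and 1 rose with gavage (11.4% and 62.5% of all genes). On that scale 2 fell with intravenous cisplatin (10.6% of all genes). Fibroblast markers rose, 6 of 6 in each, and 5 of 6 macrophage markers rose in each. Lum and Cd163 are among these rises and passed the filter only through cisplatin groups, and without them the counts are 5 of 5 and 4 of 5. Mesangial markers rose for 5 of 6 with gavage and 4 of 6 with intravenous cisplatin, at medians of 1.40 and 0.73. Of 4 parietal epithelium markers 3 rose and 1 fell in each, with medians of 1.56 and 1.08.

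Among 8 glomerular and other endothelial markers 3 fell and 1 rose in each experiment, with medians of -0.18 and -0.31 that were 0.50 and 0.21 on the spike-in scale. The endothelial falls were near the shares of all genes, 32.7% with gavage and 31.7% with intravenous cisplatin, where 30.3% and 29.8% rose. Their summed level was 82.9 to 92.3 in gavage water and 80.3 to 95.1 in gavage cisplatin, with overlap, and 80.1 to 93.5 and 77.2 to 96.8 in the intravenous groups. Of 4 red cell genes 3 fell with gavage and 4 with intravenous cisplatin, and only 2 of the 4 were well above background on all 12 arrays. The part of these shifts in the podocyte values was not tested.

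In none of the podocyte lists outside the 7 members did most of the tested genes fall. These lists include genes that other cells also make, so in RNA from whole cortex they do not report podocytes alone. The lists below were compared by count only, and 0 of their 61 tested genes passed the limma test of the difference between experiments (lowest adjusted p = 0.0556), with an unadjusted p under 0.05 for 10 of them. With the normexp correction 1 gene, from the foot process cytoskeleton and apical domain list, passed that test, with the higher value in the intravenous experiment. The slit diaphragm and its adaptors had 15 of 16 genes tested. Of these, 1 fell and 8 rose with gavage (median 0.51), and 0 fell and 8 rose with intravenous cisplatin (median 0.41). Over all genes tested, 32.7% fell and 30.3% rose with gavage, and 31.7% fell and 29.8% rose with intravenous cisplatin. With spike-in scaling 0 fell and 14 and 12 rose, where 62.5% and 55.0% of all genes rose. The same shares of all genes stand beside the counts of each list below. The fall was that of Pard6b, a polarity protein (-0.33, adjusted p = 0.0159), which rose on the spike-in scale (0.35, adjusted p = 0.0288). Without gavage water replicate 3 the fall of Pard6b was lost (adjusted p = 0.0558), and the intravenous falls numbered 2 without intravenous cisplatin replicate 1.

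The genes of this list with the smallest p-values were Prkci, an atypical protein kinase C of the polarity complex, which rose by 1.84 and 1.70, and Fat1, a giant protocadherin, which rose by 1.77 and 1.46 (gavage and intravenous). Cd2ap, the adaptor that links nephrin to actin, rose by 1.44 and 1.40. The polarity protein Pard3 rose by 1.42 and 0.86, and the scaffold Iqgap1 by 0.83 and 0.97. All are also made outside podocytes.

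Of 14 genes tested for the foot process cytoskeleton and apical domain, 4 fell and 4 rose in each experiment, with medians of 0.06 and -0.01. These counts were near the shares of all genes, 32.7% lower and 30.3% higher with gavage and 31.7% and 29.8% with intravenous cisplatin. Rab3a, a vesicle GTPase, fell by 1.71 and 1.06, and Arhgap24, a Rac-inactivating protein, by 1.06 and 1.01. Pla2r1, the phospholipase A2 receptor, rose by 1.63 and 0.98, the pointed-end capping protein Tmod3 by 0.77 and 0.45, and the motor protein Myo1e by 0.54 and 0.64. The other two falls were those of Nherf2 (-0.55) and Thsd7a (-0.34) with gavage and of Actn4 (-0.35) and Efnb1 (-0.32) with intravenous cisplatin, and Robo2 rose with gavage by 0.66. These 4 falls turned to 0.13, 0.34, 0.17 and 0.19 on the spike-in scale, and each of the 5 calls was lost without 1 or more single arrays. The call was lost for Nherf2 without gavage water replicate 3 or gavage cisplatin replicate 2 or 3 (adjusted p up to 0.0800), for Thsd7a without replicate 1 or 2 of either gavage group (up to 0.121) and for Robo2 without gavage water replicate 2 (0.0521). It was lost for Actn4 without intravenous water replicate 2 or intravenous cisplatin replicate 2 or 3 (up to 0.0735) and for Efnb1 without intravenous water replicate 2 (0.0534). Cdkn1c, a cyclin-dependent kinase inhibitor, gave 0.09 with gavage (adjusted p = 0.637) and rose by 1.14 with intravenous cisplatin (adjusted p = 0.000179). On the spike-in scale the counts were 1 lower and 10 higher with gavage, and 2 lower and 8 higher with intravenous cisplatin, and the gavage fall of Arhgap24 (-0.38, adjusted p = 0.0726) did not pass. Falls numbered 2 without gavage cisplatin replicate 2 and, with intravenous cisplatin, 2 without intravenous water replicate 2. The intravenous rise of Tmod3 was lost without intravenous water replicate 1 or 2 or intravenous cisplatin replicate 1 or 2 (adjusted p = 0.0511 to 0.0797).

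Of 5 podocyte transcription factors tested besides Wt1, 1 fell and 3 rose with gavage, and 1 fell and 1 rose with intravenous cisplatin. With spike-in scaling 0 fell and 4 rose in each. Tead1 rose in both, by 0.81 and 0.84. Tcf21 rose with gavage by 0.91 and gave 0.37 with intravenous cisplatin (adjusted p = 0.0683), and Foxc1 rose by 0.57 and gave 0.09 (adjusted p = 0.614). Foxc2 fell by 0.42 and 0.50, but the spike-in scale turned it to 0.26 and 0.01. Its gavage call was lost without gavage water replicate 3 (-0.32) or any 1 of the gavage cisplatin arrays (adjusted p = 0.0726 to 0.134). Its intravenous call was lost without intravenous water replicate 2 or intravenous cisplatin replicate 2 or 3 (adjusted p = 0.0587 to 0.0690). Without gavage cisplatin replicate 3 the intravenous value of Tcf21 passed (adjusted p = 0.0141).

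Glomerular basement membrane genes and their receptors mostly rose, 7 of 9 with gavage and 6 of 9 with intravenous cisplatin, while 2 fell in each (medians 0.91 and 0.65). Col4a4, a chain of the collagen IV network made by podocytes, fell by 2.70 and 1.89. The other fall was that of Dag1, the dystroglycan receptor (-0.39 and -0.41), which the spike-in scale turned to 0.29 and 0.11. Under quantile normalization Dag1 gave -0.10 (adjusted p = 0.308) and -0.18 (adjusted p = 0.0783), which leaves 1 fall in each experiment. The laminin chains Lamc1 and Lama5 rose by 1.30 and 0.86 and by 1.02 and 1.12, the proteoglycan Agrn by 1.11 and 0.65, and the integrin partner Cd151 by 1.30 and 1.15. Col4a3 and Col4a5 were not analysed here.

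Of 8 secreted factors 3 fell and 2 rose with gavage, and 3 fell and 1 rose with intravenous cisplatin. Over all genes, 32.7% fell and 30.3% rose with gavage, and 31.7% fell and 29.8% rose with intravenous cisplatin, so the falls were near the all-gene share. With spike-in scaling 2 fell and 4 rose with gavage, and 2 fell and 5 rose with intravenous cisplatin. Vegfa, the endothelial growth factor that podocytes and tubules make, fell by 1.22 and 0.89, and Ptgds, a prostaglandin D synthase, also fell, with differences of -3.76 and -2.43. Angptl4 rose with gavage by 0.53, a call lost without gavage water replicate 3 (0.30, adjusted p = 0.0646) or gavage cisplatin replicate 3 (adjusted p = 0.0921). Sema3a passed the filter only through the cisplatin groups, since 1 of 3 arrays of each water group measured it well above background. Its differences were 1.86 and 1.35, and the intravenous one was 0.18 with the normexp correction (adjusted p = 0.294). Without Sema3a the rises number 1 with gavage and 0 with intravenous cisplatin. Sema3g fell with gavage by 0.56 and gave -0.02 with intravenous cisplatin (adjusted p = 0.925). Cxcl12 gave -0.50 with gavage (adjusted p = 0.0524) and fell by 0.71 with intravenous cisplatin, which was -0.19 with spike-in scaling (adjusted p = 0.518). The gavage call of Sema3g was lost without gavage water replicate 1 or 2 or gavage cisplatin replicate 2 (adjusted p = 0.0527 to 0.0605), and the gavage value of Cxcl12 passed without gavage cisplatin replicate 2, at -0.69 (adjusted p = 0.0125), or without replicate 3 of intravenous water (adjusted p = 0.0471) or cisplatin (adjusted p = 0.0410). Rises numbered 1 with gavage without gavage water replicate 3 or gavage cisplatin replicate 3, and 2 with intravenous cisplatin without gavage water replicate 3. With spike-in scaling Sema3g and the gavage value of Cxcl12 were positive, at 0.12 and 0.50 for Sema3g and 0.18 for Cxcl12.

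Genes linked to podocyte injury rose for 8 of 10 with gavage and 7 of 10 with intravenous cisplatin, and 0 fell (medians 1.41 and 1.15). The 10 include 1 gene that was not well above background on any gavage water array and passed the filter only through other groups. Cd44, a hyaluronan receptor also counted among the parietal markers, rose by 4.12 and 3.98. Uchl1, a ubiquitin hydrolase, rose by 3.08 and 2.66, Snai1 by 1.53 and 1.12 and Notch1 by 1.30 and 1.15. Tubule and stromal cells also make these transcripts, and their source was not tested. On the percentile scale the medians of 4 of the 6 lists (adaptors, transcription factors, basement membrane and injury genes) were thus above 0 in both experiments. That of the 7 members was below 0 on either scale. With spike-in scaling the medians of all 6 lists were above 0. The medians of all genes were then 0.65 with gavage and 0.50 with intravenous cisplatin, so a median above 0 there does not set a list apart.

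**Figure D4:**
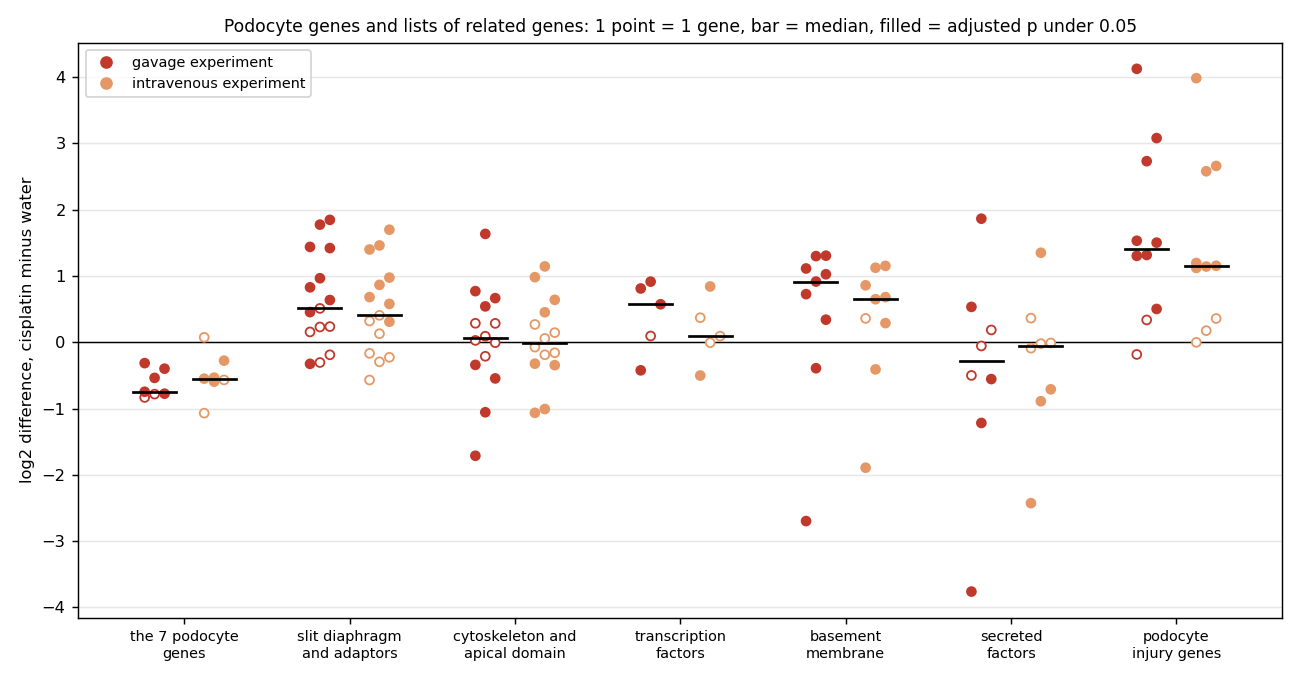
Cisplatin minus water (log2 difference relative to the 75th percentile of the array, vertical axis) for each tested gene of the 7 members and of 6 other podocyte lists; points are genes, bars are list medians and the 2 colours are the experiments. The members lie mostly below 0, whereas the basement membrane and injury lists lie mostly above it; the spike-in scale moves every point up by 0.68 (gavage) or 0.52 (intravenous).

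Likeness of profile was measured as the root mean square difference of log2 levels over the 12 arrays, after centring each gene on its own mean, among 12603 named genes. The nearest genes to Nphs1 were Ap1m1 (0.0628) and Itgb5 (0.0645), and those to Ptpro were Agk (0.0682) and Rbm42 (0.0705). Wt1 was nearest to Ndrg2 (0.104) and Fbxo21 (0.109), Clic5 to Tmem204 (0.118) and Cbx6 (0.120), and Podxl to Kin (0.134) and Hint1 (0.141). Synpo and Magi2 had no close neighbour by comparison, the nearest being 2310002L09Rikl (0.231) and Cox6a2 (0.248) for Synpo and Zfp524 (0.303) and Socs1 (0.305) for Magi2. The members were not nearest to one another: the closest other member ranked 217 for Wt1 (Nphs1), 253 for Clic5 (Nphs1), 910 for Podxl (Nphs1) and 1255 for Nphs1 (Ptpro). For Magi2 it ranked 109 (Clic5), for Ptpro 1476 (Nphs1) and for Synpo 2298 (Wt1).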

How the data were processed

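Per the submitters' processing notes, the authors used Agilent Feature Extraction 10.7, and the file headers name 10.7.1.1. Each file gives, per the file headers, a processed intensity from which the local background of that array was subtracted, with no normalization across arrays. A value table deposited by the authors holds a ratio, that intensity over the array's 75th percentile, with column medians of 0.109 to 0.121. It was used as an alternative.

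Accessions were named through a RefSeq table of assembly GRCr8, used for gene names: 28206 of 61537 probes matched 1 symbol, 33331 none and 0 several. From the deposited intensities log2 was taken minus the 75th percentile, without 1439 control spots and 82 uneven spots. Each spot was a probe of its own. Testing required a probe to be well above background throughout 1 or more groups (43900 probes, 12610 named genes).

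The 4 group means were fitted to 12 arrays in limma (version 3.58.1, R 4.3.3), with 8 residual and 2.12 prior degrees of freedom. P-values measure the spread between these animals, whose number limits the precision. The fit was tested on simulated data. Alternatives were background correction (normexp, offset 50, on the median signal, since no mean signal was in the files), normalization, spike-in scaling, filter, probe choice, slide, replicate number, the arrays fitted and each array left out. Named genes are the 7 members, 2 nearest profiles each and, from each podocyte list, up to 4 genes with the smallest p per experiment. Pard6b, Dag1, Nherf2, Thsd7a, Actn4, Efnb1, Robo2 and Angptl4 were named after their values were seen. One gene of these lists is not reported here. Members and lists were chosen with earlier results of these data known.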

Additional observations from a re-analysis of the deposited data

How the results depend on the processing

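On the spike-in scale 0 of the 7 genes fell in either experiment and 1 rose in each. Gavage differences turned positive for Nphs1 (0.14), the Clic5 probes (0.28, 0.22 and 0.44), Wt1 A_44_P176466 (0.14) and the Ptpro probes (0.36, 0.41 and 0.42), and for Foxc2 (0.26), Sema3g (0.12), Cxcl12 (0.18), Pard6b (0.35), Nherf2 (0.13), Thsd7a (0.34) and Dag1 (0.29). Intravenous differences did for the Nphs1 probes (0.24 and 0.43), Clic5 A_42_P503281 (0.19) and A_44_P759216 (0.20), Wt1 A_64_P140507 (0.18) and A_44_P176466 (0.25), Foxc2 (0.015), Sema3g (0.50), Dag1 (0.11), Actn4 (0.17) and Efnb1 (0.19), and in the water comparison Nphs1 (0.0066), Wt1 (0.049) and Ptpro (0.054) did. Under normexp Wt1 A_64_P142861 (-0.18) and Sema3g (0.0076), both intravenous, changed sign. Genes fallen with gavage were 3 with the slide as a fixed block. Genes fallen with intravenous cisplatin were 2 with the mean of all probes and 2 with the next probe of each gene, and quantile normalization gave 1 risen. Leaving out each array gave ranges across 0 for intravenous Nphs1 A_64_P162500 (-0.21 to 0.021), Wt1 A_64_P142861 (-0.51 to 0.36) and Sema3g (-0.22 to 0.13), gavage Cdkn1c (-0.055 to 0.17), the differences of effects of Synpo (-0.76 to 0.40) and Magi2 (-0.19 to 0.71) and Synpo in the water comparison (-0.32 to 0.84). The cause was not tested. The replicate block left 5 and 4 genes fallen and lost Wt1 A_44_P176466 (adjusted p = 0.0774) and Foxc2 (adjusted p = 0.0582) with gavage, and no other call given here changed. Keeping uneven spots, 1 probe per gene in the fit, the deposited ratios and a random slide effect changed none. Same-numbered arrays did not deviate together: 1 of 18 pairs had a correlation over 0.1 (-0.36 to 0.19). No pairing by number was seen, though 3 arrays per group cannot exclude it. Dim signal limits Magi2.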
